A study of Mus musculus with 11 samples.

Results

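The comparison described is that of Brn3a knockout against Brn3a heterozygote trigeminal ganglia on the Affymetrix U74Bv2 array. Its members were chosen by array title alone and are 4 of the 11 arrays of the series, 2 knockout and 2 heterozygote. All embryos were at embryonic day 13.5, and each array held RNA of about 10 to 12 ganglia that had been frozen and combined by genotype. The heterozygotes carry 1 intact copy of Pou4f1, the gene of Brn3a, and the knockouts none. The sources used here do not give the Pou4f1 allele, the strain or the sex of the embryos, and the title of heterozygote array 1 omits the word Brn3a. The only wild-type array of this type, 1 pool, is given beside the other values as a reference without replicates. An array is a pool and not an animal, so the p-values rest on spread between pools and not between animals. The spread used for each probe set was also moderated toward that of probe sets of like signal.

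The trigeminal ganglion holds the primary sensory neurons of the face, which carry touch, temperature and pain, with the satellite glia and Schwann cells that surround them. Brn3a is a POU-homeodomain transcription factor that sensory neurons switch on as they leave the cell cycle and keep thereafter. It is known for its role in the differentiation, axon growth and survival of these neurons, and for restraining transcription factors that belong to earlier or other neuronal programmes. The design text places the sampled stage after the onset of defects in axon growth and before the main wave of neuronal death.

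The level of Pou4f1 followed the genotype labels. Its probe set had heterozygote signals of 2196 and 3570, knockout signals of 550 and 904 and a wild-type signal of 3313. Both knockout arrays lay below both heterozygote arrays. The log2 difference, knockout minus heterozygote as throughout, was -1.91 ± 0.28 (SE, n = 2 arrays a group, limma adjusted p = 0.0111). With probe sets of low signal left in the test it was the same size and missed the threshold (adjusted p = 0.0649). The sources used here do not give the position of the probes within the gene, so this signal does not check the deleted part. Around Pou4f1, 15 of the 30 nearest protein-coding genes (15 on each side) were on the array and 11 were tested. None of the 11 was called, where 1.92% of all genes were called by their brightest probe set. The median log2 difference over the probe sets of the 11 genes was 0.15.

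In knockout ganglia the transcription factors Tfap2b, Gata3, Irx1 and Neurod1 and the semaphorin receptor Nrp2 rose. The sodium channel Scn7a, the potassium channel Kcna1, the transcription factor Runx1, the small GTPase Diras2 and the neurotrophin receptor Ngfr fell. Of 7446 probe sets tested, 127 (1.71%) passed a Benjamini-Hochberg adjusted p of 0.05, the threshold for a call, 38 higher (0.510%) and 89 lower (1.20%) in knockout. They stand for 35 genes that rose and 76 that fell, and 4 probe sets had no single gene name. The median signal of the called probe sets went from 1465 to 493 among falls and from 584 to 1459 among rises. Differences above 2-fold were called for 29 rises and 80 falls, and above 4-fold for 5 and 12. Over all probe sets tested the median difference was 0.02, and 52.8% lay above 0. No called probe set had overlapping knockout and heterozygote arrays, where 38.1% of all probe sets tested also did not overlap. In these bulk pools, fewer cells of a type and less RNA per cell cannot be told apart.

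The fit without the intensity trend called 81 probe sets (22 higher, 59 lower), the fit that kept dim probe sets 54 (15 and 39), and the fit with the wild-type array counted as a heterozygote 218 (72 and 146). Leaving out knockout array 1 raised the lower calls to 144. Whichever of the 4 arrays was left out, 73 of the calls remained, and 49 remained under all 13 alternatives, 12 higher and 37 lower.

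**Figure D1:**
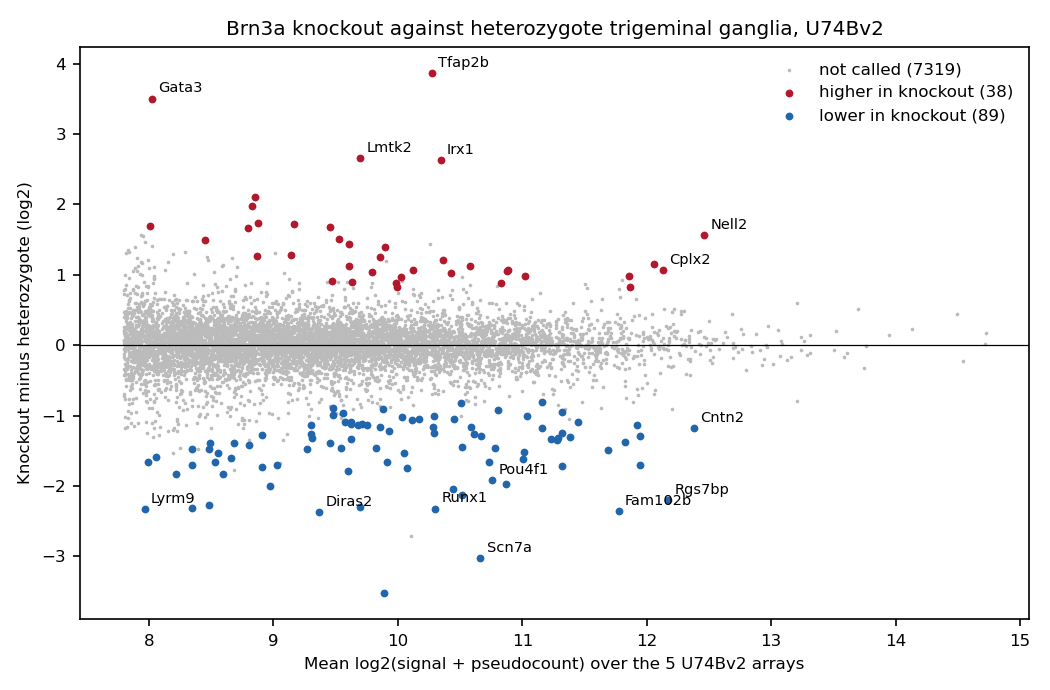
Each point is 1 probe set of the U74Bv2 array, with the mean log2 signal on the x axis and the log2 difference, knockout minus heterozygote, on the y axis. The 38 called rises and 89 called falls are coloured, and the falls outnumber the rises.

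The 2 largest rises were those of transcription factors. Tfap2b, an AP-2 factor of neural crest and its derivatives, had heterozygote signals of 347 and 415, knockout signals of 7573 and 5119 and a wild-type signal of 351. The log2 difference was 3.87 ± 0.21 (adjusted p = 8.73e-05). Gata3, a zinc-finger factor, had heterozygote signals of 87.5 and 41.0, knockout signals of 1043 and 1417 and a wild-type signal of 9.50, a log2 difference of 3.50 ± 0.32 (adjusted p = 0.00157). The pseudocount was 49.8, so the size of this difference depends on that constant, and without either knockout array it fell below the filter and was not tested. Irx1, an Iroquois homeobox factor, was measured by 2 probe sets whose name suffixes, f and i, mark relaxed rules of probe choice. The f type can match related transcripts. The f probe set went from 552 and 569 to 3919 and 3542 (2.63 ± 0.16, adjusted p = 1.52e-04). The i probe set went from 240 and 193 to 974 and 1010 (1.97 ± 0.22).

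Neurod1, a proneural bHLH factor of differentiating neurons, was measured by a probe set with the suffix i, chosen by relaxed rules. Neurod1 had heterozygote signals of 306 and 475 and knockout signals of 1420 and 1245 (1.67 ± 0.23, adjusted p = 0.00822). Foxf1, a forkhead factor best known from mesenchyme, went from 278 and 352 to 1036 and 1261 (1.72 ± 0.21, adjusted p = 0.00614). Lmcd1, a LIM-domain cofactor of transcription, went from 176 and 273 to 1248 and 993 (2.11 ± 0.25, adjusted p = 0.00536). In all 3 genes both knockout arrays exceeded the wild-type array and, as in every called rise, both heterozygote arrays. Lhx1os, a transcript opposite the homeobox gene Lhx1, had heterozygote signals of 104 and 209, knockout signals of 538 and 483 and a wild-type signal of 370 (1.49 ± 0.30, adjusted p = 0.0480). Its call was lost without knockout array 1 (1.42, adjusted p = 0.0549), knockout array 2 (1.56, 0.0529) and heterozygote array 1 (1.12, 0.0942), and in 4 further alternatives.

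Runx1 was the transcription factor with the largest fall among the genes named. It is a Runt-domain factor needed for the identity of pain-sensing neurons, and its signal went from 2123 and 2597 to 477 and 388, with 2372 in the wild-type array (-2.32 ± 0.18, adjusted p = 7.23e-04). It and Pou4f1 were the called members of the list of sensory neuron identity markers, of which 5 genes were tested. The sodium channel Scn9a, a marker of pain-sensing neurons, missed the threshold at -1.01 ± 0.20 (adjusted p = 0.0509), while the neurotrophin receptor Ntrk2 (0.63) and Runx3 (0.51), a factor of touch and position sense, were not called. The summed signal of the 6 sensory markers on the array, Pou4f1 and Runx1 included, was 7055 and 9446 for heterozygotes, 3721 and 3726 for knockouts and 8456 for wild-type. Most of the fall of this sum came from Pou4f1, the targeted gene, and Runx1, so it does not describe the other markers. Over genes by their brightest probe set, the background was 1.92% called, 0.602% higher and 1.32% lower. Of 70 further transcription factors tested, 4 rose and 1 fell, with a median of 0.05 against 0.02 over all genes. Of 12 homeobox genes 1 rose and 1 fell, and of 12 neurogenic bHLH and Notch genes 1 rose.

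Promoter windows are shown for the leading rises, Tfap2b and Gata3, and for the leading named fall, Scn7a. They are RefSeq sequences of build GRCm38.p6, from 250 bases before to 50 after the annotated start, written along the transcribed strand. Capitals mark matches to ATTAAT, a core of the sites that Brn3a is known to bind, and to GATAA or its reverse complement TTATC, the core of GATA sites. Tfap2b lies at chr1:19211804-19212103 on the plus strand, Gata3 at chr2:9878551-9878850 on the minus strand and Scn7a at chr2:66784861-66785160 on the minus strand.
Tfap2b: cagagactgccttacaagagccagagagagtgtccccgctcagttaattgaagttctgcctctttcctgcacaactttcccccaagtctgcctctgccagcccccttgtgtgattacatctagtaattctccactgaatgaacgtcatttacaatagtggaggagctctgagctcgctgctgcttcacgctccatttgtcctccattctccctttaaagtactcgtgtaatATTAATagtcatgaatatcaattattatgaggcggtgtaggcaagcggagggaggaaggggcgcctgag
Gata3: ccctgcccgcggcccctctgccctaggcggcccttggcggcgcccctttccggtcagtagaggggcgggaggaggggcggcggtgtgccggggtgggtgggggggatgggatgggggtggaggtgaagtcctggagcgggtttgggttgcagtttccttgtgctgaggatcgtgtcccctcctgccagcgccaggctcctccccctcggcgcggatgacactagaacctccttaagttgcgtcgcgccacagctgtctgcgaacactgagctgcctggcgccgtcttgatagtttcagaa
Scn7a: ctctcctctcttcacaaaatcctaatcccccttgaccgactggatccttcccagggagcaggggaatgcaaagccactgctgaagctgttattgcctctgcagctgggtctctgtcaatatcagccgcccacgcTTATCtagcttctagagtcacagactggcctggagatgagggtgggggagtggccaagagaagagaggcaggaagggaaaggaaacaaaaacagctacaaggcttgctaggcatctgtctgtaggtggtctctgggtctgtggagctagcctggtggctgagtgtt

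The Tfap2b window held 1 ATTAAT match, that of Gata3 neither motif and that of Scn7a 1 TTATC match. Promoter windows were found for 25 of the 35 genes that rose and 60 of the 76 that fell, some with several starts. ATTAAT, on either strand, was in 1 of 36 windows of rising genes (2.78%), 3 of 88 windows of falling genes (3.41%), 2.23% of the windows of all genes tested and 4.75% of all windows in the table. The longer ATAATTAAT, which contains it, was in 0 windows of either set and 0.165% of the windows of genes tested. GATAA was in 0 of 36 rising and 15 of 88 falling windows (17%), against 14.9% over genes tested. A match is a description of the letters in this window only.

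Of 34 voltage-gated and sensory ion channel genes tested 4 fell and 0 rose, while the differences of the list lay evenly around 0 (17 above, 17 below, median -0.08). Scn7a, an atypical sodium channel that responds to extracellular sodium, had heterozygote signals of 4162 and 3535, knockout signals of 413 and 439 and a wild-type signal of 3230. Its log2 difference of -3.03 ± 0.17 (adjusted p = 8.73e-05) was exceeded among falls only by that of 1 probe set with no gene name. Kcna1, the delayed-rectifier potassium channel Kv1.1 of axons, went from 815 and 858 to 137 and 215 (-1.99 ± 0.23, adjusted p = 0.00521). The auxiliary calcium channel subunit Cacna2d2 fell from 5640 and 5637 to 2291 and 2259 (-1.29 ± 0.16, adjusted p = 0.00625), and its paralogue Cacna2d1, the gabapentin-binding subunit, from 2351 and 3289 to 1325 and 1398 (2.0-fold lower, adjusted p = 0.0400). On each of these 4 probe sets the knockout arrays lay below the wild-type array and, as in every called fall, below both heterozygote arrays. A second, dimmer Cacna2d1 probe set had overlapping groups, at 287 and 344 against 179 and 294, and was not called (-0.38, adjusted p = 0.816). The call of Cacna2d1 was lost without knockout array 2 (-1.04, adjusted p = 0.0505), without heterozygote array 2 (-0.77, 0.134), without the filter (0.118) and without the intensity trend (0.127).

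Among 11 transmitter receptor genes tested, the AMPA receptor subunit Gria3 rose and no other passed, with a list median of 0.28. Gria3 had heterozygote signals of 126 and 79.1, knockout signals of 414 and 461 and a wild-type signal of 162 (1.69 ± 0.29, adjusted p = 0.0253). It lost the call without heterozygote array 2 (1.47, adjusted p = 0.0609) and with dim probe sets kept (0.104), and was not testable without either knockout array.

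The called genes of vesicle release included falls and a rise. Syt1, the calcium sensor of fast release, fell from 1759 and 1793 to 745 and 693 (-1.25 ± 0.16, adjusted p = 0.00665), while its brighter probe set missed the threshold (-1.05, adjusted p = 0.0524). Vamp1, a vesicle SNARE, fell from 652 and 577 to 122 and 227 (-1.60 ± 0.28, adjusted p = 0.0252), and Sytl2, which links Rab27 vesicles to the membrane, from 729 and 633 to 238 and 118 (-1.73 ± 0.28, adjusted p = 0.0194). In the other direction Cplx2, a complexin that binds the SNARE complex, rose from 3199 and 3071 to 7647 and 5727 (1.07 ± 0.19, adjusted p = 0.0299). Its second probe set was not called, with overlapping groups at 931 and 1240 against 1056 and 2206 (0.49, adjusted p = 0.745). Of 50 synaptic genes tested by the brightest probe set, 1 rose and 2 fell, with a median of -0.13. The Cplx2 call was lost without knockout array 1 (0.86, adjusted p = 0.0723) and without heterozygote array 2 (1.04, 0.0716). With dim probe sets kept, Cplx2, Vamp1 and Sytl2 had adjusted p-values of 0.117, 0.103 and 0.0820, and without the intensity trend Cplx2 had 0.0932.

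Calcium-binding proteins included 1 rise and 1 fall among 14 tested genes. Nell2, a secreted protein with EGF repeats that is abundant in sensory neurons, rose from 3117 and 3843 to 10900 and 9735 (1.56 ± 0.19, adjusted p = 0.00574). Its probe set has the suffix i, which marks relaxed rules of probe choice. Cabp1, a calmodulin-like regulator of calcium channels, went from 316 and 493 to 135 and 88.4 (-1.48 ± 0.29, adjusted p = 0.0480). The Cabp1 call did not survive leaving out knockout array 2 (-1.27, adjusted p = 0.0768), heterozygote array 2 (-1.20, 0.188), the wild-type array (0.0613), the filter (0.158) or the intensity trend (0.0646).

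Of the genes of G proteins, their regulators and small GTPases, 5 were called. Rgs7bp, the palmitoylated anchor that holds RGS7-family proteins at the membrane, fell from 9835 and 7082 to 1865 and 1684, with 8826 in the wild-type array (-2.20 ± 0.20, adjusted p = 0.00157). Rgs4, which speeds the shut-off of Gi and Gq, rose from 2615 and 3112 to 5616 and 5723 (0.98 ± 0.17, adjusted p = 0.0256), and Gprasp2, a receptor-sorting protein, from 1566 and 1212 to 3168 and 2664 (1.05 ± 0.19, adjusted p = 0.0271). Diras2, a neuronal Ras-family GTPase, fell from 1417 and 1002 to 175 and 207 (-2.37 ± 0.22, adjusted p = 0.00157). Rnd3, an atypical small GTPase, rose on 2 probe sets by 1.06 ± 0.18 (1151 and 1537 to 2827 and 2847, adjusted p = 0.0236) and 0.83 ± 0.16 (adjusted p = 0.0480).

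Of 36 genes of the G-protein list 2 rose and 1 fell (median -0.10), and of 102 small GTPase genes 1 rose and 1 fell (median 0.00), which is 1.96% called and near the 1.92% over all genes. Rgs4 lost its call without knockout array 2 (0.96, adjusted p = 0.0611) and heterozygote array 1 (0.85, 0.0792), and Gprasp2 without heterozygote array 2 (0.87, 0.0894). For Rnd3, the larger of the 2 differences was lost without heterozygote array 1 (0.86, adjusted p = 0.0581) and the smaller one with each of the 4 arrays left out in turn (adjusted p from 0.0785 to 0.123). With dim probe sets kept, and likewise without the intensity trend, Rgs4, Gprasp2 and both Rnd3 probe sets lost their calls (adjusted p from 0.0790 to 0.132 and from 0.0892 to 0.134), and the smaller Rnd3 difference missed the threshold at the lower pseudocount (0.0509).

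On the list of kinases, phosphatases and phospholipases 1 gene rose (Lmtk2) and 4 fell (Ptpn3, Plcxd2, Dgkh and Dgkz) among 117 tested, with a median of -0.01. Lmtk2, a membrane-anchored kinase of endosomes, rose from 289 and 240 to 1717 and 2175, and the wild-type array stood between the groups at 974 (2.66 ± 0.20, adjusted p = 5.58e-04). Ptpn3, a tyrosine phosphatase of the cytoskeleton, fell from 2293 and 2363 to 534 and 523 (-2.04 ± 0.16, adjusted p = 6.58e-04). Dgkh, which converts diacylglycerol to phosphatidic acid, fell on both of its probe sets, from 798 and 750 to 168 and 242 (-1.71 ± 0.22, adjusted p = 0.00694) and from 650 and 647 to 185 and 39.1 (-2.27 ± 0.41, adjusted p = 0.0294). Dgkz, of the same enzyme family, fell from 3951 and 3303 to 1849 and 1520 (-1.08 ± 0.18, adjusted p = 0.0208). Plcxd2, which has a phospholipase C-like domain, fell from 3376 and 2794 to 878 and 630 (-1.98 ± 0.20, adjusted p = 0.00241). The Dgkz call was lost without knockout array 2 (-0.95, adjusted p = 0.0655), without the filter (0.0771) and without the intensity trend (0.0820), and that of the dimmer Dgkh probe set without the filter (0.136), without the trend (0.0744) and at the lower pseudocount (0.0509).

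**Figure D2:**
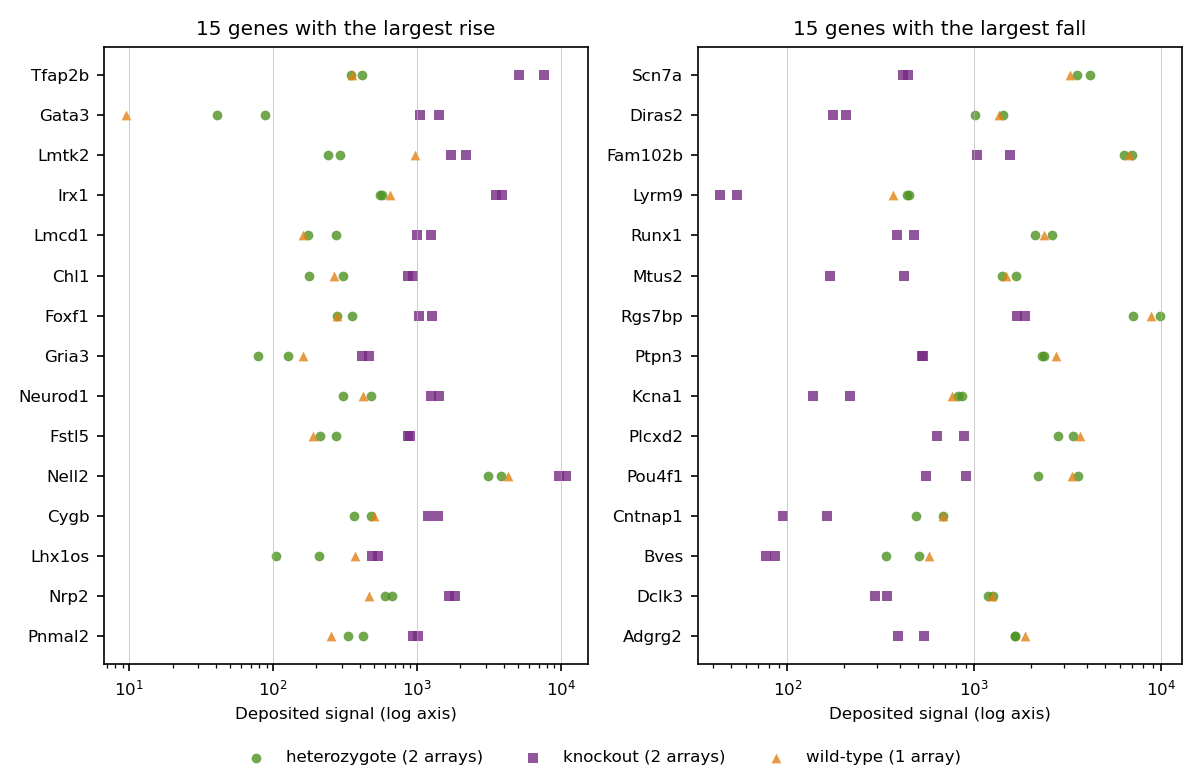
Points are the signals of single U74Bv2 arrays on a log axis for Pou4f1, the 15 leading named rises and the 15 leading named falls, coloured by genotype. Only genes whose knockout and heterozygote arrays did not overlap were eligible, so the gap between these points follows from the choice. Of all probe sets tested, 38.1% did not overlap. The wild-type point of Lmtk2 lies between its knockout and heterozygote points.

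The called guidance genes were 2 falls and 2 rises. Epha7, an ephrin receptor, fell from 1567 and 1477 to 572 and 429 (-1.53 ± 0.19, adjusted p = 0.00585), and Ablim1, an actin-binding LIM protein of growing axons, from 1168 and 990 to 510 and 307 (-1.33 ± 0.24, adjusted p = 0.0294). Nrp2, the neuropilin that binds class 3 semaphorins, rose from 598 and 673 to 1828 and 1663 (1.39 ± 0.17, adjusted p = 0.00614). The transmembrane semaphorin Sema6a rose from 952 and 925 to 1964 and 2258 (1.12 ± 0.16, adjusted p = 0.0109), but the wild-type array read 1785, close to the knockouts. Its other 2 probe sets were not called (0.60, adjusted p = 0.195, and 0.46, adjusted p = 0.753). Of 42 guidance genes tested, these 2 rose and these 2 fell, and the median was 0.02. Sema6a was not called when the wild-type array was counted as a heterozygote (adjusted p = 0.178) or without the intensity trend (0.0532), and Ablim1 was lost without the filter (0.104) or the trend (0.0862).

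Among 44 neuronal adhesion molecules tested, counting any probe set, 5 genes fell and 2 rose. Counted the same way, 76 of all 5152 genes tested fell and 35 rose. Cntnap1, the Caspr protein of the axon beside the node of Ranvier, went from 679 and 485 to 95.3 and 162 (-1.83 ± 0.28, adjusted p = 0.0143). The contactin Cntn2, also known as TAG-1, went from 7941 and 6887 to 3144 and 3364 (-1.17 ± 0.18, adjusted p = 0.0136). A second Cntn2 probe set was not called (-0.90 ± 0.26, adjusted p = 0.200). Clstn2, a calsyntenin of synapses, fell from 907 and 1186 to 447 and 471 (-1.10 ± 0.19, adjusted p = 0.0275), Bves, a Popeye-domain membrane protein, from 507 and 338 to 77.0 and 86.1 (-1.82 ± 0.28, adjusted p = 0.0149), and Alcam from 2687 and 2898 to 1550 and 1587 (-0.81 ± 0.16, adjusted p = 0.0409). Chl1, a neural L1-family protein, instead rose from 308 and 179 to 934 and 866 (1.73 ± 0.26, adjusted p = 0.0128), and the GPI-anchored Ntm from 1273 and 1424 to 2643 and 2414 (0.88 ± 0.16, adjusted p = 0.0311).

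Of 44 adhesion genes tested by their brightest probe set 1 rose and 3 fell (median -0.08), and the calls of Bves, Alcam and Ntm came from a probe set that was not the brightest. The other 3 Ntm probe sets differed by 0.35 to 0.69 and were not called. Bves was lost without heterozygote array 1 (-1.56, adjusted p = 0.0652), Clstn2 without heterozygote array 2 (-0.91, 0.126), and Ntm without knockout array 1 (0.82, 0.0698) or heterozygote array 1 (0.81, 0.0888). Alcam was lost with each of the 4 arrays left out in turn (adjusted p from 0.0576 to 0.136). With dim probe sets kept, all 7 genes missed the threshold (adjusted p from 0.0647 to 0.0933), and without the intensity trend Clstn2 (0.0798), Ntm (0.116) and Alcam (0.134) did.

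Of 61 cytoskeletal genes tested 3 fell and 0 rose, with a median of -0.09. Mtus2, a microtubule plus-end protein, went from 1680 and 1402 to 419 and 170 (-2.30 ± 0.32, adjusted p = 0.00860). Mtus1, of the same family, went from 2393 and 2202 to 832 and 984 (-1.30 ± 0.17, adjusted p = 0.00665), with a second probe set just short of the threshold (-1.12, adjusted p = 0.0505). Dclk3, a doublecortin-like kinase, went from 1257 and 1184 to 341 and 294 (-1.79 ± 0.18, adjusted p = 0.00241). With dim probe sets kept Mtus2 had an adjusted p of 0.0568.

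Transcripts of 1 trophic receptor and 1 ligand fell. Ngfr, the p75 receptor shared by the neurotrophins, fell from 3655 and 2781 to 1107 and 1055, with 2745 in the wild-type array (-1.52 ± 0.18, adjusted p = 0.00521). It was the only call among 16 neurotrophin and GDNF pathway genes tested, whose median was -0.11. Igf1, an insulin-like growth factor, fell on 2 probe sets, from 4020 and 3459 to 1504 and 1465 (-1.30 ± 0.16, adjusted p = 0.00635) and from 387 and 562 to 92.8 and 128 (-1.70 ± 0.28, adjusted p = 0.0206). On the other array type, U74Av2, Igf1 did not fall (0.08 ± 0.57) and its groups overlapped. Fstl5, a secreted follistatin-like protein, rose from 211 and 274 to 888 and 861 (1.67 ± 0.22, adjusted p = 0.00745). Igf1 and Fstl5 were the calls among 38 growth factor, Wnt and hedgehog genes, whose median was 0.07. Hrk, a BH3-only protein that promotes apoptosis, fell from 900 and 888 to 477 and 439 (-0.90 ± 0.18, adjusted p = 0.0486) and was the only call of 9 apoptosis and p53 genes. It lost its call without knockout array 2 (-0.84, adjusted p = 0.129), heterozygote array 1 (-0.89, 0.125) or heterozygote array 2 (-0.91, 0.139), without the filter (0.104), without the trend (0.101) and at the lower pseudocount (0.0509). The dimmer Igf1 probe set was lost without heterozygote array 2 (-1.45, adjusted p = 0.0885) and without the filter (0.0879).

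RNA-binding proteins made up 3 of the 4 called members of the pan-neuronal list, the other being Syt1. Rbfox1, a splicing regulator of mature neurons, fell from 2911 and 2297 to 804 and 767 (-1.66 ± 0.17, adjusted p = 0.00288), and Mbnl2, a muscleblind splicing factor on no list, picked after its values were seen, from 3335 and 3758 to 1586 and 1338 (-1.25 ± 0.17, adjusted p = 0.00810). This was the only called probe set of the 7 tested for Mbnl2. The other 6 ran from -0.84 to 0.24, with 1 of opposite sign. Elavl2, a neuronal Hu protein that stabilises messages, rose from 2948 and 2978 to 6451 and 6821 (1.15 ± 0.16, adjusted p = 0.0106), and Celf4 from 1054 and 984 to 1910 and 2350 (1.02 ± 0.17, adjusted p = 0.0232). Of 15 pan-neuronal genes tested by the brightest probe set 1 rose and 1 fell, with a median of -0.21. The brighter Elavl2 probe set was not called (0.60, adjusted p = 0.295), nor were the dimmer ones of Celf4 (1.11, adjusted p = 0.0644) and Rbfox1 (adjusted p = 0.105). Celf4 was lost without knockout array 2 (0.88, adjusted p = 0.0768), heterozygote array 2 (0.97, 0.0584), the filter (0.0718) or the trend (0.0862), and Elavl2 without the filter (0.0509).

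No list of the other cell types of the ganglion held a call except mesenchyme. These lists are short, and with 1.92% of all genes called, 0 calls does not set them apart. Schwann cell and satellite glia markers had 0 calls, with 8 of 10 tested genes above 0 and a median of 0.28. Slc1a3, a glutamate transporter of glia, missed the threshold at 1.47 ± 0.32 (adjusted p = 0.0698), and Sox10, the defining factor of crest glia, differed by 0.33. The brightest of the list, the endothelin receptor Ednrb (0.20 ± 0.22) and the tweety-family membrane protein Ttyh1 (0.19 ± 0.18), were not called. The summed signal of the 12 glial genes on the array was 24221 and 24406 for heterozygotes, 30479 and 28542 for knockouts and 24372 for wild-type, so the knockout sums were higher. The summed signal of 16 pan-neuronal genes overlapped between the groups, at 96769 and 94382 against 99919 and 89134. The part of glial content in the results was not tested.

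Foxf1 and Igf1 were the called members of the mesenchyme list, in opposite directions. The summed signal of its 13 genes, Igf1 included, was 6970 and 6228 for heterozygotes and 4845 and 5384 for knockouts. Igf1 alone gave 4020 and 3459 of the heterozygote sums and 1504 and 1465 of the knockout sums. The fall of the sum was smaller than that of Igf1, so the sum does not describe the other genes of the list. Endothelial (6 tested), red cell (7), muscle (2) and cartilage genes (3) had 0 calls, and medians of 0.03, 0.10, -0.03 and 0.38. Their brightest genes were Plvap (0.32 ± 0.18) in endothelium, Urod (0.10 ± 0.17) in red cells, Srl (-0.13 ± 0.17) in muscle and Sox6 (0.60 ± 0.27) in cartilage. No macrophage gene of the list was on the array, and the 1 hindbrain gene tested was Hoxb2 (0.11). The 4 epithelial and pigment cell genes tested had 0 calls and a median of 0.03. DNA replication and mitosis genes had 0 calls of 29, with 23 of 29 above 0 and a median of 0.17, and Pole, a DNA polymerase subunit, differed by 0.17 ± 0.16. Their summed signal over 51 genes was 15332 and 16586 in heterozygotes against 18581 and 18451 in knockouts. Immediate early and heat shock genes, a sign of handling, had 0 calls of 30 and a median of -0.08 (Dnajc5, -0.01 ± 0.18), and respiratory chain genes 0 of 13 and 0.05. With 1.92% of all genes called, 0 calls in lists of these sizes is near that share. Vgf, the 1 granin-like gene tested, went from 2630 and 3243 to 1605 and 2526 and was not called (-0.52 ± 0.23). Xist, which follows the share of female embryos in a pool, read 38.4 and 544 for heterozygotes, 303 and 372 for knockouts and 168 for wild-type. The 2 heterozygote arrays stood at the extremes and the knockouts between them, and Xist was not called (0.75 ± 0.71).

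**Figure D3:**
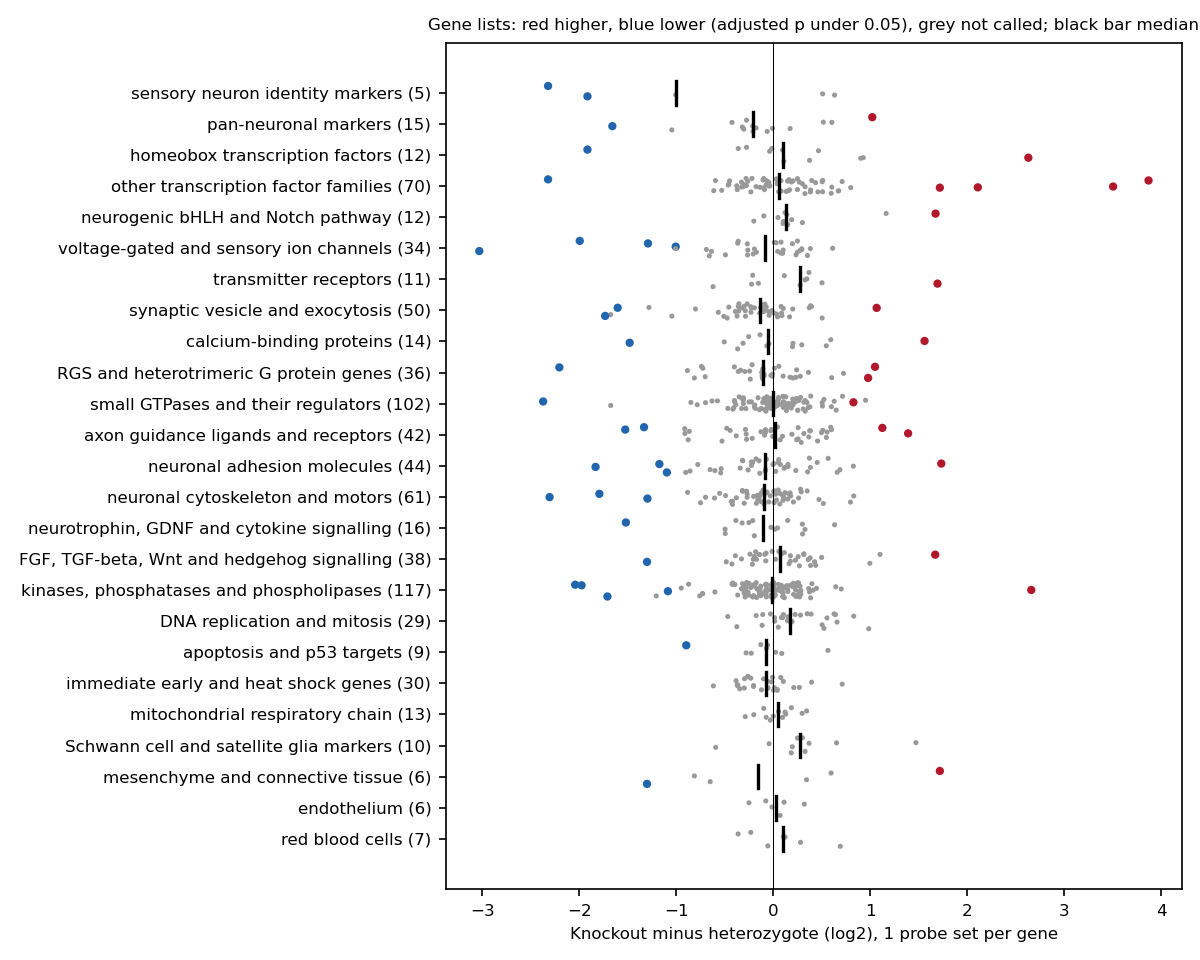
Each row is a gene list, points are the log2 differences, knockout minus heterozygote, of its tested genes by their brightest probe set, and the bar marks the list median. The called genes are coloured. The lists of DNA replication, glia and respiratory chain genes hold 0 calls, where 1.92% of all genes were called.

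A further 61 called genes stood on no list, and those given next were picked after their values were seen. Fam102b, which is also among the leading falls, fell on 2 probe sets, from 6326 and 7009 to 1545 and 1032 (-2.35 ± 0.21, adjusted p = 0.00157) and from 3625 and 4498 to 1308 and 1081 (-1.72 ± 0.18). Synm, the intermediate filament protein synemin, fell on all 3 of its probe sets, with log2 differences of -1.46, -1.34 and -1.32, and Ube2ql1, a ubiquitin-conjugating enzyme, on both (-1.70 and -1.61). Dok4, a docking adaptor of receptor tyrosine kinases, had 3 probe sets. That with the suffix g fell from 2836 and 2186 to 575 and 495 (-2.12 ± 0.18). The brightest gave -1.48 ± 0.23 and lost its call without the filter (adjusted p = 0.0761) or the intensity trend (0.0611). The one with the suffix r was not called (-0.55, adjusted p = 0.496). Grb14, an adaptor of the insulin receptor, fell from 2615 and 1951 to 837 and 765 (-1.44 ± 0.19). Adgrg2, an adhesion G protein-coupled receptor, fell from 1649 and 1653 to 541 and 390 (-1.74 ± 0.19, adjusted p = 0.00334). The neurite-promoting surface protein Nrn1 went from 5306 and 5244 to 2487 and 2263 (-1.14 ± 0.16, adjusted p = 0.0109), and the microtubule-affinity kinase Mark1 from 4798 and 5736 to 2082 and 1910 (-1.37 ± 0.17). Adam11 (-1.18 ± 0.16) and Adam22 (-1.16 ± 0.16), which belong to a family of neuronal surface proteins without protease activity, also fell. A second Adam22 probe set differed by less and was not called (-0.58, adjusted p = 0.153).

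Fewer rises fell outside the lists. Cygb, a globin, rose from 479 and 367 to 1392 and 1202 (1.52 ± 0.20, adjusted p = 0.00733), and Pnmal2 from 330 and 419 to 942 and 1016 (1.29 ± 0.21, adjusted p = 0.0186). Cttnbp2, a cortactin-binding protein of dendritic spines, went from 618 and 599 to 1491 and 1563 (1.26 ± 0.17, adjusted p = 0.00740), and Ctnnbip1, which blocks beta-catenin from TCF factors, from 1605 and 1563 to 3275 and 3093 (0.98 ± 0.15, adjusted p = 0.0166). In all 4 the knockout arrays also lay above the wild-type array. Their distance from the heterozygotes is shared by every call and by 38.1% of all probe sets tested. With dim probe sets kept, Pnmal2 (adjusted p = 0.0649), Ctnnbip1 (0.0509) and Nrn1 (0.0509) were lost, and Ctnnbip1 also without the intensity trend (0.0747).

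Of the called genes, 39 had a further tested probe set on the same array, 59 in all. For 36 of the 39 all probe sets had the same sign, for 8 all were called, and for 18 an uncalled one moved by less than 0.5 of the called one. The 39 were chosen for holding a call. The share of same signs over all genes with several probe sets was not computed, so these counts are a description. Lyrm9, a protein of the mitochondrial LYR family, went from 437 and 450 to 53.6 and 43.5 on the first probe set (-2.33 ± 0.28, adjusted p = 0.00521) and differed by -0.45 on the second. The first was not testable without either heterozygote array. Chn2, a Rac-inactivating chimaerin, was called on 2 probe sets (-2.32, suffix f, and -1.27, no such suffix), while another, with the suffix r, gave 0.24. The Chn2 probe set with the suffix f read 114 and 47.7 in the knockouts. It lost its call with dim probe sets kept (adjusted p = 0.0755). Prickle2 (1.21 against -0.10) and Mbnl2, described above, were the other 2 genes with probe sets of both signs, and the uncalled Mxra7 probe set was near 0 (-0.96 against -0.04). Plcxd2 (-1.98 called, -0.91 not called), Bves (-1.82 and -0.86) and Pls1 (-1.66 and -0.81) each had 2 probe sets of the same sign. Cygb had 1 called probe set of 3 (1.52, against 0.90 and 0.72), and Fam210b 2 called of 4 (1.43 and 1.12, against 0.59 and 0.22). Pls1, an actin-bundling plastin, lost its call without either heterozygote array (adjusted p = 0.0742 without array 1, 0.0579 without array 2), and Mxra7 without 3 of the arrays (0.0607 to 0.127). Prickle2 lost its call with dim probe sets kept (0.0934) and without the trend (0.0938).

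**Figure D4:**
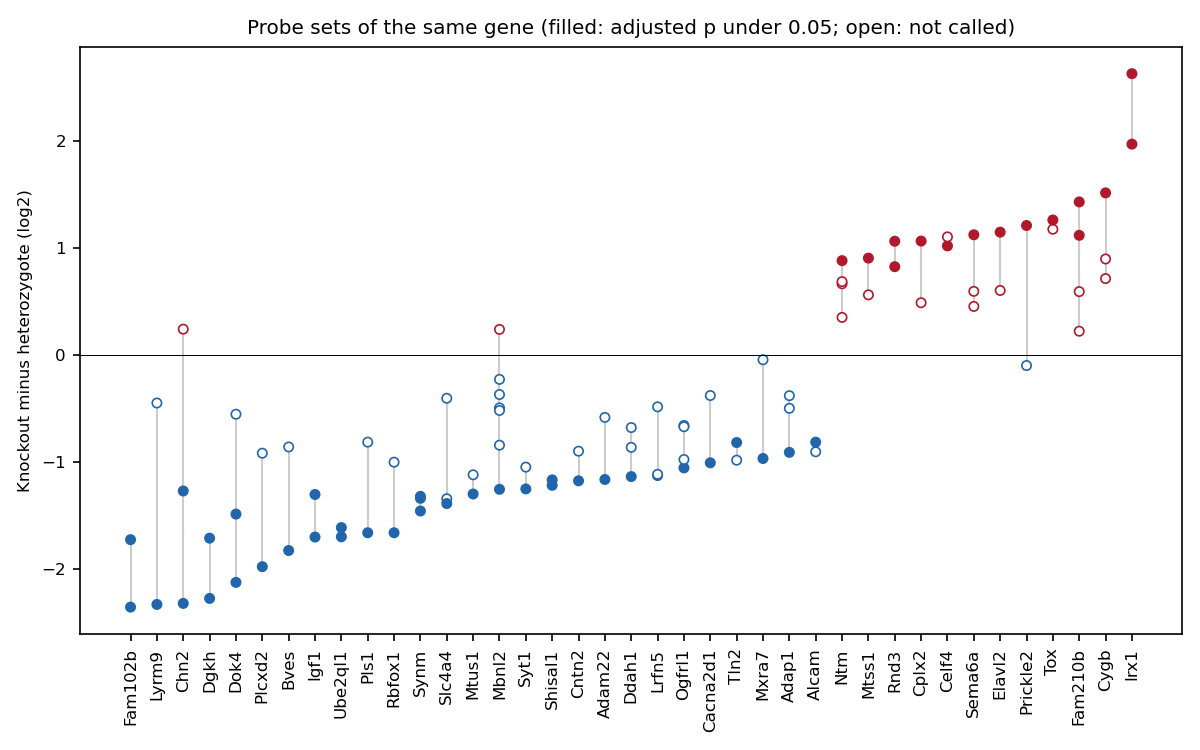
For the genes with a called probe set and another tested one on the array, points give the log2 difference, knockout minus heterozygote, of each probe set, filled where called. All probe sets share 1 sign in 36 of 39 genes, which were chosen for holding a call. The share over all genes was not computed.

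The wild-type array lay nearer the heterozygotes for 35 of the 38 rises and 88 of the 89 falls. The exceptions were Sema6a, Lhx1os and Lmtk2 among rises and Kcp, a modulator of BMP signalling, among falls (721 and 554 against 207 and 213, with 324 in the wild-type array). Kcp lost its call without heterozygote array 1 (-1.22, adjusted p = 0.0963), with wild-type counted as heterozygote (0.0982) and with dim probe sets kept (0.0820). Among falls the wild-type value was above both heterozygotes in 31, between them in 31 and below both in 27, and among rises it was below both in 14, between them in 11 and above both in 13. The median shift of the wild-type array toward the knockouts was -0.020 of the difference for falls and -0.026 for rises. The choice of called probe sets used the heterozygote arrays, so these counts are a description.

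On the U74Av2 array, whose probe sets and arrays are different ones, 23 of the called genes could also be tested. The log2 differences had the same sign in 21 of the 23, where 62.6% of all genes tested on both array types had the same sign, and 20 had knockout arrays apart from the heterozygotes in the same direction, where 27.9% of all genes tested there had groups that did not overlap in either direction. The 3 that were called there were Gata3 (4.25), Tfap2b (3.38) and Runx1 (-2.06), against a background of 0.230% of genes. Kcna1 went from 301 and 400 to 49.3 and 48.8 (-2.01 ± 0.26, adjusted p = 0.0509) and Scn7a from 316 and 240 to 25.2 and 72.1 (-1.76 ± 0.33, adjusted p = 0.150), both without overlap. Neurod1 (1.44), Nell2 (1.17), Celf4 (1.16), Epha7 (-1.27), Hivep2 (-1.26), Slc4a4 (-1.21) and Alcam (-1.11) had the sign of U74Bv2 without passing the test, while Igf1 (0.08 ± 0.57) and Sema6a (-0.37 ± 0.59) had the opposite sign. Over 1121 genes tested on both array types the differences correlated at r = 0.58 across genes, which are not independent replicates, and the sources used here do not say whether the RNA pools were shared.

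**Figure D5:**
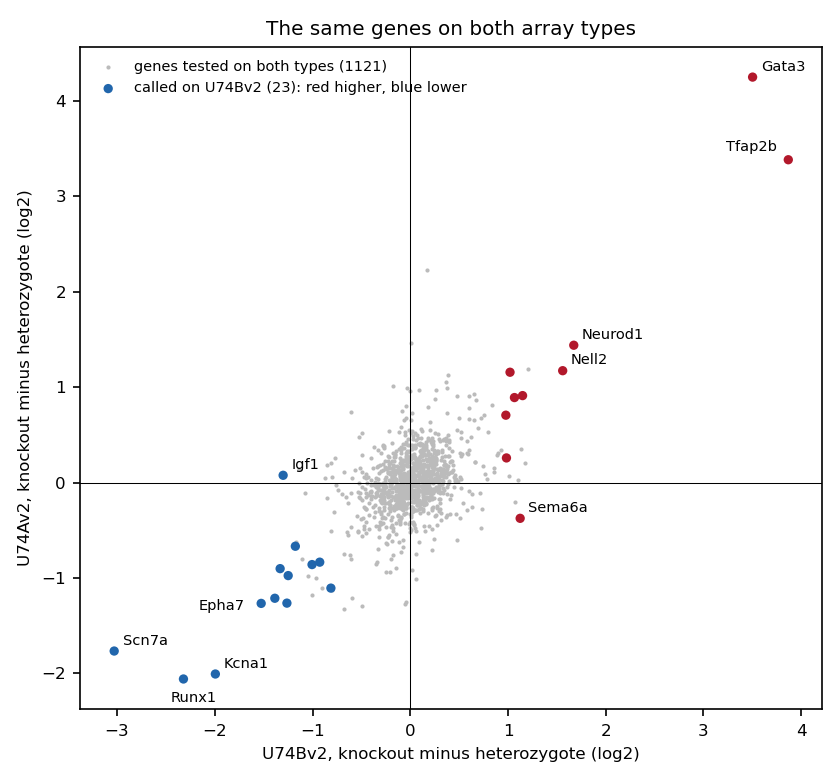
Each point is 1 gene tested on both array types, with the log2 difference, knockout minus heterozygote, on U74Bv2 on the x axis and on U74Av2 on the y axis. The 23 genes called on U74Bv2 are coloured, and 21 of them have the same sign on both.

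The genes just inside the threshold were Hrk (-0.90), Mtss1 (0.91) and Ccdc184 (0.90), with adjusted p-values of 0.0486, 0.0486 and 0.0493. Mtss1 lost its call with each array left out in turn (adjusted p from 0.0768 to 0.136) and Ccdc184 without either knockout array (0.0912 and 0.0963) or heterozygote array 2 (0.171). Just outside stood a probe set with no gene name (1.57, adjusted p = 0.0504), the second Mtus1 probe set (0.0505) and Scn9a (0.0509).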

How the data were processed

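Gene expression was measured on 5 U74Bv2 arrays (2 knockout, 2 heterozygote, 1 wild-type) and 6 U74Av2 arrays. The deposited values are intensities, 1 linear signal per probe set, computed by MAS5, per the submitters' processing notes. The sources used here do not give its version. The 2% trimmed means of the U74Bv2 arrays lay between 497.61 and 498.38, and no scaling was added. The number of arrays limits the precision.

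Signals were taken as log2(signal + 49.8), 0.1 of the mean trimmed mean (50.0 on U74Av2), so fold changes of dim probe sets are understated. Probe sets at or below the 40th percentile of the mean log2 value were left out: 4965 of 12411 on U74Bv2. A limma 3.58.1 model (R 4.3.3) with 1 coefficient per genotype was fitted per array type, with eBayes and an intensity trend; differences with a Benjamini-Hochberg adjusted p under 0.05 over all probe sets tested, two-sided, were called. Values after ± are standard errors. Python 3.11.15 with pandas 2.3.3 and matplotlib 3.10.9 made the counts and plots. On simulated data with 7446 probe sets 59.2% of seeded changes of log2 size 1 and 99.6% of those of size 2 were called, beside 8 false calls a run on average.

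Symbols came from the platform annotation: 10581 probe sets had 1 symbol, 178 several and 1652 none, and 10550 matched the GRCm38.p6 gene table by Entrez identifier. Lists were counted by the brightest probe set of each gene. The text names Pou4f1, the 15 leading rises and 15 leading falls by size (called, 1 symbol, no overlap, each gene ranked by the brightest of its called probe sets), called list members up to 8 a list or otherwise the brightest, genes whose probe sets disagree, and the probe sets next to the threshold; other genes are said to be picked after their values were seen. Members and lists were chosen with earlier results of these data known. The 13 alternatives comprised 2 other pseudocounts, no filter, a 60th percentile filter, quantile scaling, no trend, the 4 arrays alone, wild-type pooled with heterozygotes, a replicate block and each array left out in turn.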

Additional observations from a re-analysis of the deposited data

How the results depend on the processing

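Under the alternatives run, 0 of the 127 calls changed direction where they could be tested. The count of calls moved by over 1.5 times without the filter on dim probe sets (54, with 15 higher and 39 lower), without the intensity trend (81, with 22 and 59), with wild-type pooled with heterozygotes (218, with 72 and 146) and with the replicate block (317, with 112 and 205). With each array left out in turn the total ranged from 130 to 188, the higher calls from 35 to 56 and the lower calls from 77 to 144. The replicate numbers are shared by the genotypes in the labels, but nothing says that they mark a shared pool or day; the deviations of same-numbered arrays correlated at 0.10 over 7446 probe sets, and the 2 pairs are too few to settle a pairing. The block kept all 127 calls. Pou4f1 was -1.91 in the fit without the filter, with an adjusted p of 0.0649, and called in all others. Both pseudocounts, the 60th percentile filter, quantile scaling and the 4 arrays alone gave 115 to 151 calls. The cause of a lost call of a named gene was not tested. With 2 arrays a group the depth of replication limits what could be called: in simulation 59.2% of changes of log2 size 1 passed.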

Other observations

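Some large differences did not pass the test and were picked after their values were seen. Zdhhc22, a palmitoyltransferase, had signals of 2528 and 2007 in the heterozygotes, 739 and 106 in the knockouts and 2446 in the wild-type array, a log2 difference of -2.72 ± 0.59 (limma adjusted p = 0.0662). The knockout arrays lay below all others and differed widely from each other.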
